A study of Mus musculus with 10 samples.

Results

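The 7 genes described here, Calb1, Car8, Itpr1, Atp2a3, Homer3, Prkg1 and Pvalb, belong to the metabotropic glutamate and calcium signalling pathway of cerebellar Purkinje cells (PCs). They were chosen by name, with earlier results of these data known, and found by gene identifier in every count table. They make up 7 of 55536 gene entries. The 10 libraries read here hold RNA of cerebellum and cerebral cortex from 5 mice aged 1 year. They compare a brain region in which PCs degenerate with one that served as reference. The study also sequenced both tissues of mice aged 1 month, which are not covered here. Mice of both classes were on a C57BL/6J background. The 2 Snx14-KO mice carried a frameshift deletion of 1 base on both alleles of Snx14, an endoplasmic reticulum (ER) sorting nexin, and the allele was not limited to a cell type. The 3 control mice were 2 Het animals (controls 1 and 2), which carry 1 mutant allele, and 1 WT animal (control 3), and they were pooled as the labels name them. Each mouse gave both tissues, which the labels describe as a mix of cell types.

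PCs are the output neurons of the cerebellar cortex. At their parallel fibre synapses glutamate activates metabotropic receptors, which act through the G protein Gq and phospholipase C to form inositol trisphosphate and diacylglycerol. Inositol trisphosphate opens a calcium channel of the ER, diacylglycerol activates protein kinase C, and the resulting calcium rise, together with the nitric oxide and cGMP branch, takes part in long-term depression of the synapse.

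The members cover these steps in order. Homer3 is a scaffold that links metabotropic glutamate receptors to the inositol trisphosphate receptor. Itpr1 encodes that receptor, Car8 a carbonic anhydrase-related protein that binds it and lowers its affinity for inositol trisphosphate, and Atp2a3 a pump that returns calcium to the ER. Calb1 (calbindin) and Pvalb (parvalbumin) are cytosolic calcium buffers, and Pvalb is also made by molecular layer interneurons and by cortical interneurons. Prkg1 is the cGMP-dependent protein kinase of the nitric oxide branch.

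Coordinates are from GRCm38. Homer3 (ENSMUSG00000003573.15) lies on chromosome 8 from 70282827 to 70294361 on the plus strand, and Itpr1 (ENSMUSG00000030102.11) on chromosome 6 from 108213096 to 108551109 on the plus strand. Calb1 (ENSMUSG00000028222.2) and Car8 (ENSMUSG00000041261.9) both lie on chromosome 4, the former from 15881264 to 15908064 on the plus strand and the latter from 8143362 to 8239041 on the minus strand. Atp2a3 (ENSMUSG00000020788.15) lies on chromosome 11 from 72961169 to 72993044 on the plus strand. Prkg1 (ENSMUSG00000052920.15) spans 30564489 to 31765033 on the minus strand of chromosome 19, and Pvalb (ENSMUSG00000005716.16) spans 78191114 to 78206400 on the minus strand of chromosome 15. Of their exonic bases, 25.4% in Homer3 and 1.58% in Itpr1 are shared with another gene, and none in the other members.

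Promoter sequences from RefSeq (GRCm38.p6), from 250 bases before to 50 after a start site, were matched by symbol for 4 of the 7 members. One each is shown for Homer3, Atp2a3 and Pvalb, because these members stand for the different sizes of KO effect described below. They are printed 5′ to 3′ on the gene's strand, and capitals mark matches to the motifs searched. The regions are chr8:70282749-70283048 (plus strand), chr11:72960919-72961218 (plus strand) and chr15:78206351-78206650 (minus strand).
Homer3: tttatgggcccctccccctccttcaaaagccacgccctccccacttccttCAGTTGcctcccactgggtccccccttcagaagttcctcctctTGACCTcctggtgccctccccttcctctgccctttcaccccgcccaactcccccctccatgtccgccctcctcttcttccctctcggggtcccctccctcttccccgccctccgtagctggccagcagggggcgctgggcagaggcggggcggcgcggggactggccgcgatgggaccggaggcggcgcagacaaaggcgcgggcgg
Atp2a3: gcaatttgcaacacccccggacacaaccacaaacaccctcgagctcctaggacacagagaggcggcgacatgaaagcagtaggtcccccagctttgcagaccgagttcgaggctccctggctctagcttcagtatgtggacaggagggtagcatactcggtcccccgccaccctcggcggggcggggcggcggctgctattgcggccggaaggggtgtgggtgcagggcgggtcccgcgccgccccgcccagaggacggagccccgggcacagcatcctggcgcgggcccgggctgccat
Pvalb: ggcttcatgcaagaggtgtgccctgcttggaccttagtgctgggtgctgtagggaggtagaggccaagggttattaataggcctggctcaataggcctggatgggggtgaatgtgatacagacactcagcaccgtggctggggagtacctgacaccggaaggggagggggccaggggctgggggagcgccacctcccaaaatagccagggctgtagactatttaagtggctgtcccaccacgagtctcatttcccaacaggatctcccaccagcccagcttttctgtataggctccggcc
The motifs were searched on both strands and comprised the E-box CANNTG, the nuclear receptor half-site AGGTCA, the TATA box TATAAA and the cAMP response element TGACGTCA. They occur in 72.3%, 16.3%, 13.6% and 1.79% of 32851 promoters of this length. The Homer3 window held an E-box match (CAGTTG) at −200 from the start site and AGGTCA on the opposite strand (TGACCT) at −157. The Atp2a3 window and the Pvalb window shown held no match. A second Pvalb promoter in the table, chr15:78204188-78204487 (minus strand), which is not shown, held E-box matches at −111 (CATGTG) and 18 (CATATG), and no matches overlapped. GC content was 69.7% for Homer3, 68.3% for Atp2a3 and 58.3% for the Pvalb window shown, against a median of 52.7% over all promoters.

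Libraries held 16088310 to 22975355 gene counts, and levels are counts-per-million values (CPM) scaled within a tissue. Snx14 itself was at 44.3 and 41.5 CPM in the Het cerebella, 76.1 in the WT cerebellum and 15.9 and 18.0 in the KO cerebella. In cortex it was at 33.1, 33.8 and 48.8 CPM in controls 1 to 3 and at 14.5 and 15.5 in the KO libraries, so both KO mice lay below all controls in each tissue. The cortex library of control 2 stood apart, since the summed level of 8 striatal projection neuron genes was 3606 CPM there, 1534 and 1382 CPM in the other control cortices and 867 and 399 CPM in the KO cortices. KO changes that rest on the cortex are therefore also given without that library. The sums of the other 2 control cortices also lay above both KO cortices, so leaving out control 2 does not remove this difference between the classes.

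In the control cerebellum all members were present in every library. Per kb of exon, mean levels were highest for Pvalb, at 904 CPM per kb ± 91.1 (SD, n = 3), followed by Car8 at 464 ± 31.3, Calb1 at 245 ± 13.7, Itpr1 at 218 ± 43.6, Homer3 at 116 ± 2.76, Atp2a3 at 54.2 ± 6.79 and Prkg1 at 4.45 ± 0.802. Calb1 and Itpr1 were the only neighbours in this order whose libraries overlapped, from 230 to 254 and from 168 to 246 CPM per kb. The order was the same by mean in the KO cerebella, where Pvalb stood at 691 CPM per kb, Car8 at 182, Calb1 at 104, Itpr1 at 97.8, Homer3 at 59.5, Atp2a3 at 22.8 and Prkg1 at 1.98.

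**Figure D1:**
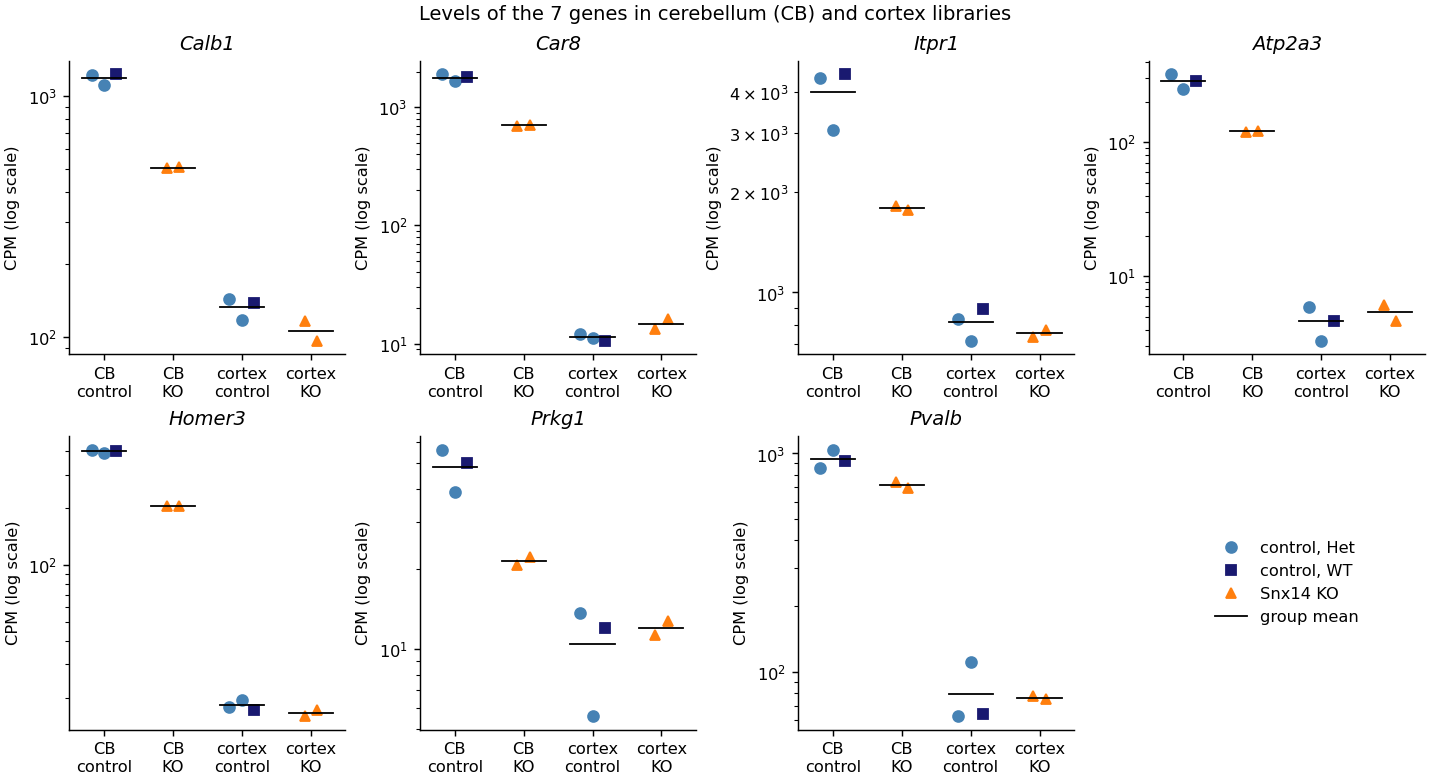
Level of each of the 7 genes in every library, in CPM on a log scale, with Het controls as circles, the WT control as a square, KO mice as triangles and the group mean as a line. In cerebellum (CB) both KO libraries lie below all 3 controls for each gene, and in cortex the classes lie close together.

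The question asked of the cerebellum was how far each member fell in Snx14-KO mice and whether the falls were alike. Calls required that edgeR's quasi-likelihood test gave an adjusted p (Benjamini-Hochberg) under 0.05 and that the log2 fold change was over 0.5 in size. By this rule 6 of the 7 members fell and none rose, where 1.04% of the 19447 genes tested were called lower and 0.514% higher. Both KO libraries lay below all 3 controls for 7 of 7 members, an order shown by 15.5% of tested genes. The median log2 change was −1.17 over the members and 0.000899 over all genes tested. Because the members were chosen with earlier results of these data known, these shares are a description and no test of the set.

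The scaffold Homer3 was at 407, 389 and 399.6 CPM in controls 1 to 3 and at 205 and 204 CPM in KO 1 and KO 2. The classes were well apart, and the controls differed least of any member. Homer3 fell by 0.96 on the log2 scale (SE 0.0681, adjusted p = 0.000467), and its KO level was 51.3% ± 0.0478 (SD, n = 2) of the control mean. Here and for the other members, the SD of this percentage covers the KO libraries only and leaves out the spread of the controls. Reads were counted without regard to strand, and Ddx49, a helicase gene on the opposite strand that shares exonic bases with Homer3, fell as well, from 217 to 119.6 CPM on average (log2 change −0.86, SE 0.0591, adjusted p = 0.000462), so reads of the pair cannot be told apart in the shared stretch.

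Itpr1, the ER calcium release channel, was at 4399.9, 3073 and 4506 CPM in the controls and at 1819 and 1763 CPM in the KO libraries. It had the highest CPM of the members, and control 2 was the lowest of its controls but still above both KO libraries. It fell to 44.8% ± 0.992 of control (log2 change −1.16, SE 0.170, adjusted p = 0.0120). This call was the least firm of the 6, since it was lost when control 1 (adjusted p = 0.0624), control 3 (0.0561), KO 1 (0.0691) or KO 2 (0.0601) was left out, and without control 2 the log2 change was −1.31 (adjusted p = 0.000305).

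Car8, the modulator of that channel, was at 1899, 1659 and 1799 CPM in the controls and at 701 and 705 CPM in the KO libraries. No other member fell further, with a log2 change of −1.35 (SE 0.0983, adjusted p = 0.000505) and a KO level of 39.4% ± 0.176 of control. Atp2a3, the ER pump, was at 321, 249 and 289 CPM in the controls and at 119 and 122 CPM in the KO libraries. The KO libraries agreed closely while the controls spread over 12.5% (coefficient of variation), and the log2 change was −1.25 (SE 0.105, adjusted p = 0.000960), to 42.1% ± 0.743 of control.

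Of the calcium buffers, Calb1 was at 1226, 1113 and 1229 CPM in the controls and at 502 and 506 CPM in the KO libraries. It fell to 42.4% ± 0.218 of control (log2 change −1.24, SE 0.0904, adjusted p = 0.000505). Pvalb was at 855, 1043 and 925 CPM in the controls and at 744 and 694 CPM in the KO libraries. Both KO libraries were below the lowest control, but the gap was small, at 76.4% ± 3.73 of control, and the log2 change of −0.39 (SE 0.104) did not pass in edgeR (unadjusted p = 0.00540, adjusted p = 0.128). DESeq2 gave an adjusted p of 0.00162 for Pvalb, with a change below the fold threshold.

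The kinase Prkg1 was the scarcest member, at 56.2, 38.9 and 49.8 CPM in the controls and at 20.8 and 22.2 CPM in the KO libraries. The classes did not overlap. It fell to 44.5% ± 2.12 of control (log2 change −1.17, SE 0.150, adjusted p = 0.00697), a call that was lost without KO 1 (log2 change −1.12, adjusted p = 0.0520). Calb1, Car8, Atp2a3 and Homer3 were called with any 1 library left out. Cerebellum control 2, the lowest control for all members but Pvalb, for which it was the highest, was also left out, and the log2 changes were then −1.40 for Car8, −1.34 for Atp2a3, −1.30 for Prkg1, −1.28 for Calb1, −0.98 for Homer3 and −0.31 for Pvalb. Among all tested genes ordered by log2 change from the lowest, Car8 was at place 66, Atp2a3 at 94, Calb1 at 95, Prkg1 at 128, Itpr1 at 133, Homer3 at 234 and Pvalb at 1372.

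**Figure D2:**
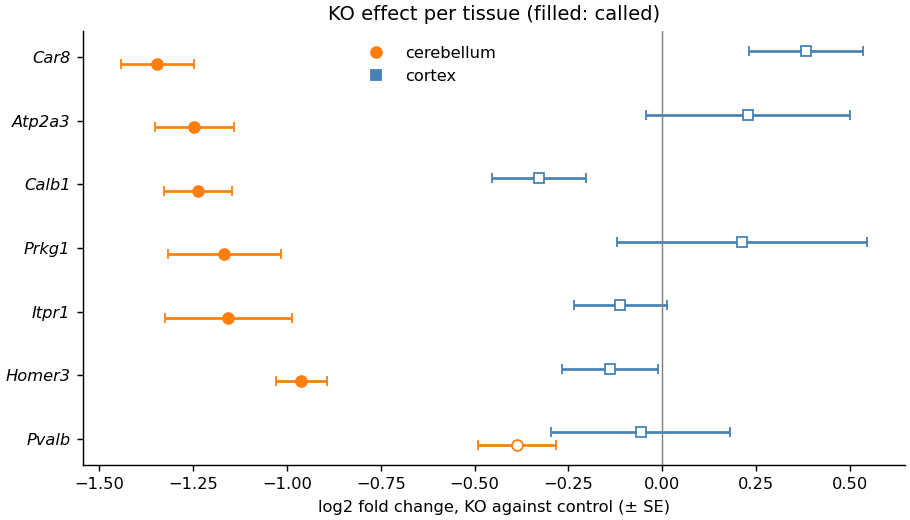
Log2 fold change, KO against control, with its SE for each member in cerebellum (circles) and cortex (squares), filled where called. The cerebellum values run from −1.35 for Car8 to −0.39 for Pvalb, and no cortex value was called.

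To set the falls against each other, the change of each gene was compared with that of Calb1 by testing its log2 ratio to Calb1 across the 5 cerebellum libraries with limma, adjusted over 19446 genes. All these comparisons share the error of Calb1 itself. Of 6 members 2 differed, both with a smaller fall, where 95.0% of all genes tested differed in that direction. Pvalb changed by 0.85 less than Calb1 on the log2 scale (SE 0.121, adjusted p = 4.84e-05), and Homer3 by 0.27 less (SE 0.0807, adjusted p = 0.00729). With the replicate number as a block the Homer3 difference was 0.25 and no longer passed (adjusted p = 0.0832). By the labels the mice of a block share only a number, and control 3, the WT mouse, has no KO partner, so it does not enter the blocked difference. Without control 3 and without a block the difference was also 0.25 (adjusted p = 0.0334).

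The remaining members were not told apart from Calb1. The difference was −0.11 for Car8 (SE 0.0824, adjusted p = 0.227), 0.10 for Itpr1 (SE 0.125, adjusted p = 0.445), −0.0030 for Atp2a3 (SE 0.0913, adjusted p = 0.975) and 0.09 for Prkg1 (SE 0.127, adjusted p = 0.513). These errors leave room for differences of the size seen for Homer3 in Itpr1 and Prkg1, whose controls varied most, with coefficients of variation of 20.0% and 18.0% against 2.39% for Homer3. The signs for Itpr1, Prkg1 and Atp2a3 turned when 1 library was left out.

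The same ratios were read library by library. The log2 ratio of Calb1 to Pvalb was 0.52, 0.093 and 0.41 in the controls and −0.57 and −0.46 in the KO libraries, without overlap. These are ratios of CPM, which is not corrected for exon length, so only their shift between classes is read. Per kb of exon Pvalb stood above Calb1 in every cerebellum library. The log2 ratio of Calb1 to Homer3 was 1.59, 1.52 and 1.62 in the controls and 1.30 and 1.31 in the KO libraries, again without overlap. The log2 ratio of Calb1 to Atp2a3 was 1.94, 2.16 and 2.09 in the controls and 2.08 and 2.05 in the KO libraries, which fell among the controls.

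Over all 21 pairs of members, KO and control ratios did not overlap in 12, made up of 6 of 6 pairs with Pvalb, 3 of 5 pairs of Homer3 with another member and 3 of the other 10 pairs. Among all pairs of tested genes with a count in every cerebellum library, 30.5% did not overlap, so the share in those other 10 pairs was close to the background. Those 3 all contained Car8, with Calb1, Atp2a3 or Prkg1, and the class means of the 10 pairs differed by 0.0035 to 0.21 on the log2 scale. With 3 against 2 libraries a two-sided exact permutation test cannot go below p = 0.2, and no pair could pass (smallest adjusted p = 0.35).

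**Figure D3:**
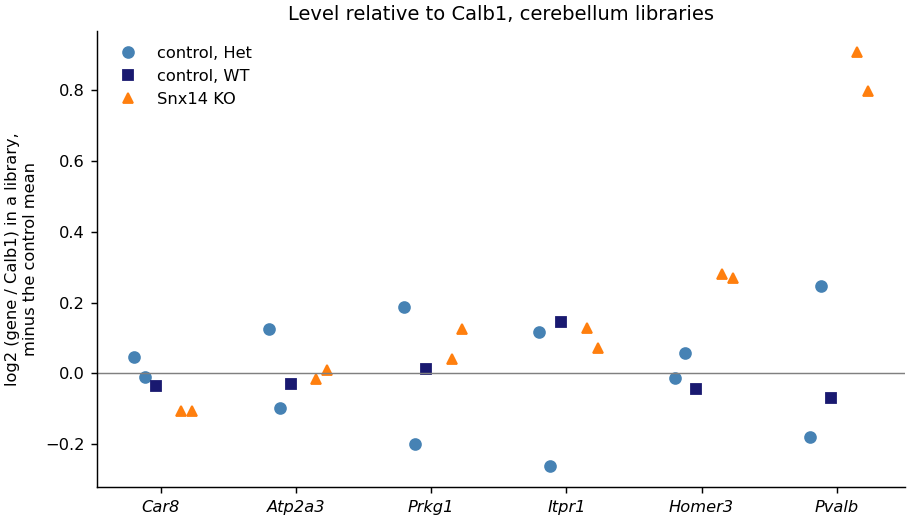
Log2 ratio of each member to Calb1 in each cerebellum library, minus the mean of the 3 controls. KO triangles lie well above the controls for Pvalb, above them by a smaller step for Homer3, and within or close to their spread for the others.

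The cortex gave the reference levels. In control mice all 7 members were higher in cerebellum than in cortex, where 19.2% of 20614 genes were called higher, with edgeR adjusted p from 2.02e-11 to 4.45e-05. Car8 differed most, by 7.20 on the log2 scale (SE 0.124), followed by Atp2a3 at 5.85 (SE 0.184), Homer3 at 4.34 (SE 0.0749), Pvalb at 3.46 (SE 0.202), Calb1 at 3.05 (SE 0.107), Itpr1 at 2.19 (SE 0.150) and Prkg1 at 2.12 (SE 0.262). Without the cortex library of control 2 all 7 were called again, at 7.18 for Car8, 5.63 for Atp2a3, 4.38 for Homer3, 3.77 for Pvalb, 2.95 for Calb1, 2.08 for Itpr1 and 1.79 for Prkg1. Neither fit paired the tissues of a mouse, and with the animal as a block all 7 members were called as well. Per kb of exon the order in control cortex was another one, with Pvalb at 76.0 CPM per kb, Itpr1 at 44.4, Calb1 at 27.5, Homer3 at 5.31, Car8 at 2.92, Prkg1 at 0.957 and Atp2a3 at 0.876. The libraries of Prkg1, from 0.514 to 1.25 CPM per kb, overlapped those of Atp2a3, from 0.621 to 1.13, and other neighbours in the order did not overlap.

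Within the cortex no member was called, and 0 of 19202 genes passed (edgeR, 1139 genes at an unadjusted p under 0.05). DESeq2 called 50 genes (0.281%), none of them a member. Calb1 was at 144, 118 and 138 CPM in the controls and at 116 and 96.0 CPM in the KO libraries. Both KO libraries lay below the controls, KO 1 only just, an order shown by 12.6% of genes, with a log2 change of −0.33 (SE 0.125, unadjusted p = 0.0323, adjusted p = 0.797). Without control 2 it was −0.41, with an adjusted p of 0.0298 and a size below the fold threshold.

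Car8 was at 12.1, 11.2 and 10.5 CPM in control cortex and at 13.2 and 16.2 CPM in KO cortex. Both KO libraries were above the controls, as for 11.9% of genes, and the log2 change was 0.38 (SE 0.151, unadjusted p = 0.0363, adjusted p = 0.808), or 0.38 without control 2 (adjusted p = 0.331). Homer3 was at 18.0, 19.6 and 17.2 CPM in the controls and at 16.0 and 17.2 CPM in the KO libraries, with a log2 change of −0.14, or −0.09 without control 2. Its KO libraries lay just below the lowest control, by less than the controls differed among themselves. In both classes these members were far lower in cortex than in cerebellum. Ddx49, which shares reads with Homer3, was at 30.5, 32.7 and 28.9 CPM in control cortex and at 28.7 and 29.8 CPM in KO cortex, above Homer3 in each library. The part of shared reads in the cortex level of Homer3 was not tested.

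Itpr1 was at 834, 715 and 893 CPM in control cortex and at 734 and 773 CPM in KO cortex, and Atp2a3 at 5.95, 3.28 and 4.65 against 6.11 and 4.66 CPM. Prkg1 was at 13.6, 5.58 and 11.96 against 11.2 and 12.7 CPM, and Pvalb at 62.5, 111 and 64.0 against 77.3 and 74.9 CPM. In these members the classes overlapped. Control 2, the library with the raised striatal genes, was the lowest for Itpr1, Atp2a3 and Prkg1 and the highest for Pvalb. The log2 changes were −0.11 for Itpr1, 0.23 for Atp2a3, 0.21 for Prkg1 and −0.06 for Pvalb, and without control 2 they were −0.20, 0.03, −0.10 and 0.27 in the same order, none of them called. The part of the striatal genes in these values was not tested.

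An interaction term in edgeR over the 10 libraries tested whether KO changed a gene differently in cerebellum and cortex. Car8 and Homer3 passed, which is 2 of 7 members where 0.0776% of 20614 genes were called lower. For Car8 the log2 ratio of cerebellum to cortex within a mouse was 7.19, 7.11 and 7.31 in the controls and 5.65 and 5.35 in the KO mice, a difference of effects of −1.71 (SE 0.159, adjusted p = 0.00373). That call held with any library left out. For Homer3 the ratios were 4.40, 4.20 and 4.42 in the controls and 3.60 and 3.48 in the KO mice, a difference of −0.80 (SE 0.109, adjusted p = 0.0241) that was lost in 8 of 10 fits with 1 library left out (adjusted p up to 0.207).

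In the Homer3 tissue ratios, and in its difference from Calb1, the part of reads shared with Ddx49 was not tested. The other differences of effects between tissues were −0.89 for Calb1 (adjusted p = 0.0906), −1.02 for Itpr1 (0.153), −1.46 for Atp2a3 (0.106), −1.36 for Prkg1 (0.318) and −0.31 for Pvalb (0.880). Without the cortex library of control 2, Calb1 (−0.83, adjusted p = 0.0229) and Atp2a3 (−1.27, 0.0383) passed as well as Car8 (−1.72, 0.00112) and Homer3 (−0.87, 0.00236), while Itpr1 (−0.96, 0.0756), Prkg1 (−1.07, 0.0703) and Pvalb (−0.65, 0.0633) did not. Because both tissues came from the same mice, the fit was also made with the animal as a block, in which 6 of 7 members passed and 0.417% of genes were called lower. There the adjusted p was 0.0121 for Calb1, 0.00101 for Car8, 0.00879 for Itpr1, 0.00679 for Atp2a3, 0.0205 for both Homer3 and Prkg1, and 0.507 for Pvalb. Across the members, the log2 ratio of cerebellum to cortex in controls and the KO change in cerebellum had a Pearson r of −0.28 and a Spearman rho of −0.43 (7 genes from the same libraries, given as a description).

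The wider pathway was read from 5 lists of 61 genes that hold no member. Of these, 13 fell in cerebellum, none rose and 48 were not called, and the median log2 change was −0.14. Over all genes tested in cerebellum 1.04% were called lower and 0.514% higher, the shares to set beside the counts of each list below. The lists were chosen with earlier results of these data known. In cortex 0 of the 60 tested were called.

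From the receptor to phospholipase C and its outputs, 5 of 13 genes fell, with a median of −0.39. Dagla, which makes an endocannabinoid from diacylglycerol, went from 103 ± 12.6 to 55.5 ± 1.77 CPM (log2 change −0.89, SE 0.104, adjusted p = 0.00463). The diacylglycerol kinase Dgkz went from 727 ± 22.7 to 461 ± 22.3 CPM (log2 change −0.66, SE 0.0808, adjusted p = 0.00585). The postsynaptic scaffold Shank2, named after its values were seen, had a log2 change of −0.62 (adjusted p = 0.0454). The phospholipase gene Plcb4, named likewise, was at 376 ± 20.0 CPM in the controls and 291 ± 25.8 CPM in the KO libraries (log2 change −0.37, adjusted p = 0.0744). The Homer paralogs, named likewise, had log2 changes of 0.19 for Homer1 and 0.42 for Homer2 (adjusted p = 0.324), and neither passed.

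Of the ER calcium store genes 1 of 14 fell, with a median of 0.02. This was Ryr1, a ryanodine receptor (86.5 ± 11.2 to 49.8 ± 2.88 CPM, log2 change −0.79, adjusted p = 0.00898). The relatives of the members, again named after their values were seen, were not called, with log2 changes of 0.29 for Itpr2, 0.04 for Itpr3 and −0.47 for the pump gene Atp2a2 (adjusted p = 0.147).

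Plasma membrane calcium entry and extrusion had 2 of 11 genes that fell, Cacna1g, a T-type calcium channel (301 ± 50.5 to 163 ± 1.83 CPM, log2 change −0.88, adjusted p = 0.0124), and Cacna2d2, a calcium channel auxiliary subunit (−0.59, adjusted p = 0.0192). Among calcium-binding and calmodulin-pathway genes 2 of 14 fell, the calmodulin-binding Pcp4 (783 ± 56.7 to 476 ± 25.4 CPM, −0.72, adjusted p = 0.00720) and the kinase Camk2a (118 ± 16.5 to 62.5 ± 3.42 CPM, −0.91, adjusted p = 0.00635). Camk2a was far higher in control cortex, at 2915 CPM, where its log2 change was 0.38. The medians of these lists were −0.08 and −0.15.

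In the nitric oxide and cGMP list 3 of 9 genes fell, with a median of −0.12. Ppp1r17, the phosphatase inhibitor that is a substrate of the kinase encoded by Prkg1, went from 246 ± 5.22 to 101 ± 5.27 CPM (log2 change −1.28, SE 0.0652, adjusted p = 0.000444). The cGMP phosphodiesterases Pde5a and Pde9a had log2 changes of −0.92 (adjusted p = 0.0159) and −0.53 (adjusted p = 0.0101). Against Calb1, the change of Ppp1r17 differed by −0.04 (adjusted p = 0.651).

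**Figure D4:**
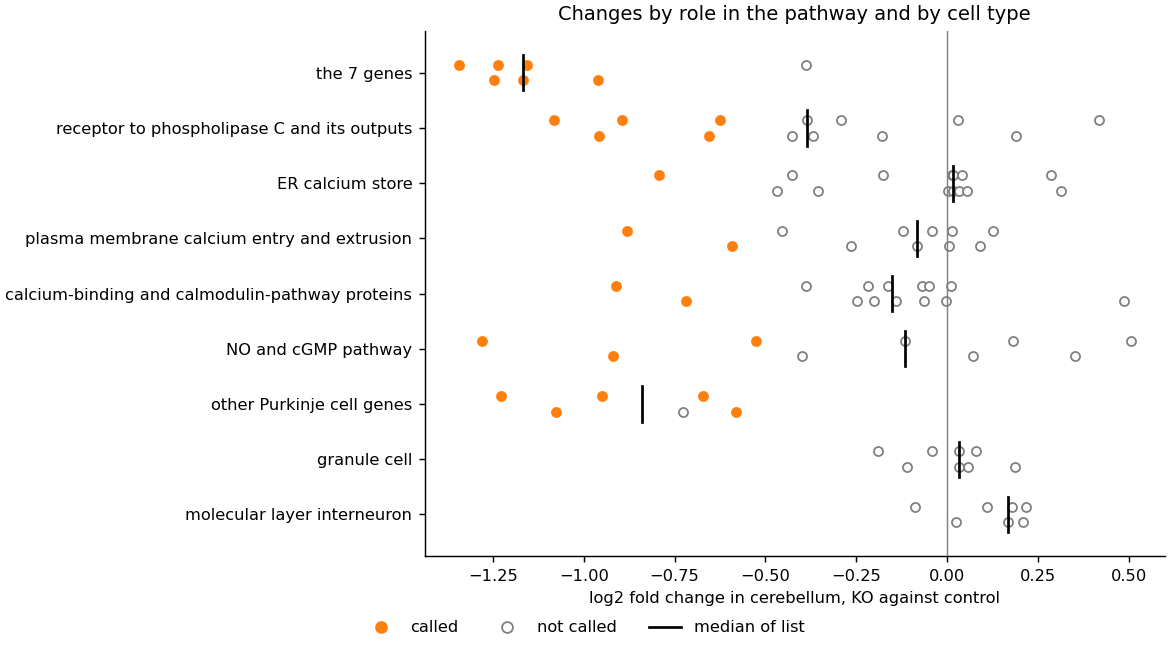
Log2 change in cerebellum, KO against control, of every tested gene in each list, filled where called, with the list's median as a bar. The 7 genes have a median of −1.17, the medians of the 5 pathway lists lie between −0.39 and 0.02, and called genes are on the negative side throughout.

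Cell type markers were read beside the members. Of 6 other PC genes, 5 fell (median log2 change −0.84), where 1.04% of all genes tested were called lower. Their summed level was 2282 to 2448 CPM in the control and 1129 to 1155 CPM in the KO cerebella. In bulk tissue, fewer cells of a type and less RNA per cell cannot be told apart. Of the 7 markers of molecular layer interneurons, which also make Pvalb, none was called, and their sum was 601, 473 and 666 CPM in the controls and 656 and 596 CPM in the KO libraries. None of 8 granule cell genes was called, with sums of 4584, 4849.97 and 4135 CPM against 4802 and 4097 CPM. Vascular smooth muscle cells and pericytes, which also make Prkg1, had 0 of 6 tested markers called and sums of 69.2, 80.7 and 84.8 CPM against 79.4 and 89.8 CPM. The part of these cell types in the member values was not tested.

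Finally, the genes most like each member were taken by the root mean square difference of their centred log2 CPM over the 10 libraries, among 11265 genes with at least 10 CPM on average in control cerebellum. For Calb1 they were Ptprr (0.131), Gm29529 (0.171) and the PC marker Rgs8 (0.190), and for Car8 Skor2 (0.214), Arhgef33 (0.238) and Pcp2 (0.302). The nearest to Itpr1, Gm44040 (0.0955) and Gm44101 (0.0957), share its exonic bases and so its reads, and the next was Washc2 (0.208). Atp2a3 had Gm14033 (0.238), Fam107b (0.368) and Zfp385c (0.417), the largest distances of any member. Homer3 had Pet100 (0.130, which shares exonic bases with the PC gene Pcp2), Cep76 (0.177) and Casq2 (0.194), and Prkg1 had Cacna1g (0.162), Kitl (0.230) and Gm44101 (0.237). For Pvalb, 9130019P16Rik (0.190) and Stard5 (0.206) were among the nearest, and neither is a nearest gene of another member.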

How the data were processed

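Cerebellum and cortex RNA of 3 control and 2 Snx14-KO mice was measured by strand-specific, paired-end mRNA-Seq. The authors trimmed the reads, aligned them to GRCm38 with STAR and counted them with featureCounts 2.0.1, and deposited the raw gene counts of each library in its own table, neither normalized nor pooled. Per the file headers, strand was not used, a read pair was counted for every gene it overlapped, and multi-mapping reads were not counted, so overlapping genes can share reads. The submitters' processing notes also name DESeq2 1.38.3.

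Of 81881 entries, 55536 carried mouse gene identifiers, and only these were analysed, under GENCODE M21 names. The other 26345 held 0.160% to 0.926% of a library's counts. Library totals were 16088310 to 22975355. Biological coefficients of variation, as common values over all tested genes, were 0.121 in cerebellum and 0.141 in cortex. The part of counting error in the spread of each member was not tested.

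Groups followed the labels. Classes were compared within a tissue with edgeR 4.0.16 (R 4.3.3; quasi-likelihood test, filterByExpr with a count minimum of 10, TMM), and tissues and the interaction in 1 fit of all libraries. A call needed an adjusted p under 0.05 and, outside the interaction and the ratio to Calb1, a log2 fold change over 0.5 in size. Ratios to Calb1 were tested with limma 3.58.1 (trend), using log2 CPM (prior count 2), and ratios of pairs with an exact permutation test. Fits were tested on simulated data. Alternatives were DESeq2 1.42.0, its size factors, library totals alone, no count filter, a prior count of 0.5, replicate or animal blocks, and leaving out each library. Between tissues the blocks come from the animal numbers in the labels, and deviations of the same animal correlated at 0.164 to 0.370.

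The members and gene lists were chosen with earlier results of these data known. The genes named were the members, Snx14, at most 4 called genes per pathway list (or, with none called, that of smallest p) and the 3 genes most like each member. Others are named as seen afterwards, as are Ddx49 and the marker genes. Marker lists of glia, endothelium and forebrain neurons are given in the closing observations. Some genes that this rule names are not reported here.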

Additional observations from a re-analysis of the deposited data

Results flagged for a closer look

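Car8 and Homer3 had a KO effect that differed between cerebellum and cortex by the interaction test in edgeR. Car8 had a log2 change of −1.35 in cerebellum and 0.38 in cortex, a difference of −1.71 (SE 0.159, adjusted p = 0.00373). Homer3 had −0.96 and −0.14, a difference of −0.80 (SE 0.109, adjusted p = 0.0241). The Homer3 call was lost in 8 of 10 fits with 1 library left out, while that of Car8 held in all of them. The difference was larger in size than that of Homer3 for Atp2a3 (−1.46), Prkg1 (−1.36), Itpr1 (−1.02) and Calb1 (−0.89), which did not pass in this fit. With the animal as a block 6 members passed, all but Pvalb, so the calls do not set Car8 and Homer3 apart from the other members.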

How the results depend on the processing

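The 6 calls of members in cerebellum and the absence of one for Pvalb held under DESeq2, its size factors in edgeR, scaling by library totals, no count filter and the replicate block, and 4 to 6 members were called with 1 library left out. Counts of genes moved more. In cerebellum 302 genes were called, 842 without the filter and 133 to 400 with 1 library left out (133 without control 1, 179 without control 3, 180 without KO 1). In cortex there were 0, 50 by DESeq2, 380 without the filter, and 0 to 98 with 1 library left out, 98 being without control 2. For the interaction there were 21 genes and 2 members, 218 and 5 by DESeq2, 599 and 6 without the filter, and 3 to 117 genes and 1 to 4 members with 1 library left out, the highest without cortex control 2. Relative to Calb1, 18479 genes differed, 31315 without the filter and 17767 to 18178 with 1 library left out, with 2 members each time. Without the filter the estimated prior degrees of freedom were infinite. Between tissues 7870 to 8616 genes were called with 1 library left out. Within cerebellum, 13 to 15 pairs of members did not overlap with 1 library left out. Fewer libraries make such a lack of overlap easier, and its share over all pairs of genes was not computed for these smaller sets. The counts can therefore not be set against that of the full set. Within a tissue, same-numbered libraries correlated at 0.012 and −0.036 in cerebellum and at 0.071 and 0.15 in cortex. By the labels they share only a number, and with 2 KO libraries these values cannot show whether they share more. The replicate block gave 181 genes in cerebellum, 3 in cortex, 128 genes and 6 members for the interaction, and 1 member that differed from Calb1. Signs turned with 1 library left out for Atp2a3 minus Calb1 (−0.052 to 0.060, with 0.0097 without KO 1), Itpr1 minus Calb1 (−0.031 to 0.17), Prkg1 minus Calb1 (−0.013 to 0.18), Prkg1 in cortex (−0.10 to 0.46), Pvalb in cortex (−0.20 to 0.27) and the interaction of Snx14 (−0.51 to 0.048). Control 2 of the tissue was the library left out where these values of Itpr1, Prkg1 and Pvalb turned. The cause of these shifts was not tested. In cortex, Snx14 did not pass in edgeR (log2 change −1.36, adjusted p = 0.754) but did by DESeq2 (adjusted p = 2.09e-06). With 2 KO mice, p-values rest on few animals.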

Other observations

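In cerebellum, where the members fell, 3 of 6 Bergmann glia and astrocyte genes rose and 1 fell, 1 of 6 microglia genes rose, and none of 6 oligodendrocyte genes and 6 endothelial genes was called. Over all genes tested there, 0.514% were called higher and 1.04% lower. In cortex none of these genes was called, the 6 endothelial genes had a median log2 change of 0.53, and the 6 oligodendrocyte genes one of −0.32. The 8 striatal projection neuron genes were all negative in cortex, with a median of −1.86 and none called. Of the 8 forebrain GABA interneuron genes none was called in cortex, where Pvalb marks such cells, with sums of 983 to 1068 CPM in the controls and 909 to 914 CPM in the KO libraries. None of 7 cortical excitatory neuron genes was called in cortex either.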
